A study of Mus musculus with 72 samples.

Results

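The genes of the major histocompatibility complex (MHC) and of the antigen presentation machinery were described in RNA.seq libraries of the adult mouse heart. The set holds every protein-coding gene of the deposited count table whose mouse symbol starts with H2-, together with B2m, Tap1, Tap2, Tapbp, Cd74 and Ciita. This rule found 43 of the 24237 genes of the table, and it used no expression value. The rows of H2-Q6 and H2-Q8 are identical in all 72 libraries, and the rows of H2-Q7 and H2-Q9 differ by 1 read in all, so the set holds 41 distinct measurements and each of these pairs was counted once.

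Hearts of male and female C57BL/6J mice at 10 months of age (9 in the labels) were divided into right atrium, left atrium and ventricles. There were 4 groups: naïve Ahr+/+ mice, whose dams were given corn oil, Ahr-/- mice from untreated dams, which lack the aryl hydrocarbon receptor, and Ahr+/+ mice exposed in utero to low-dose (0.1 µg/kg) or high-dose (1 µg/kg) TCDD. TCDD, or dioxin, is a persistent ligand of that receptor, and the dams received it by gavage on 3 days of gestation, so the offspring were examined long after exposure. The labels name TCDD as the treatment of all 72 libraries and give doses without a unit, and the groups follow genotype, dose and control mark. Each group was sequenced in 3 libraries per sex and chamber, numbered 1 to 72 in the labels. The knockout removes the receptor in every cell of the animal, and the 3 chambers came from the same hearts, although the labels do not tie libraries to hearts.

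MHC class I molecules consist of a heavy chain (H2-K1 and H2-D1 in this strain) and beta-2 microglobulin, encoded by B2m. They are loaded in the endoplasmic reticulum with peptides pumped in by the transporter Tap1 and Tap2 and edited by tapasin, encoded by Tapbp, and nearly all nucleated cells carry them. The class Ib genes of the Q, T and M regions encode related heavy chains with narrower or specialised roles. MHC class II molecules (H2-Aa with H2-Ab1, and the H2-Eb1 chain) are carried mainly by macrophages, dendritic cells and B cells, are chaperoned by the invariant chain Cd74, receive peptide through H2-DM under the control of H2-O, and are switched on by the transactivator Ciita. C57BL/6 mice carry a defective H2-Ea gene and so make no complete E molecule, although H2-Eb1 is transcribed. H2-Ke6 is a member by its symbol only: it encodes a steroid dehydrogenase, Hsd17b8.

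Several features of the libraries bear on every result below. Totals ranged from 11873417 to 28789382 counts, so a count of 0 allows up to 3 counts, or 0.253 CPM (a gene's reads relative to the total of its library) in the smallest library and 0.104 in the largest, from counting error only. Ahr itself was at 8.59 to 30.8 CPM in naïve libraries and at 2.00 to 9.23 CPM in Ahr-/- libraries. Of the 72 libraries, 17 went against their label: 8 held sex-linked RNA of the opposite sex (4 labelled female right atrium, 4 labelled male ventricle), 8 labelled atrium had Myl4, the atrial myosin light chain, at no more than 48.7 CPM where the other atrial libraries had at least 621, and 5 labelled ventricle had it at 675 CPM or more where the others had at most 193. Of the 17, 12 were among libraries 49 to 72 and 5 among libraries 1 to 48. In libraries 49 to 72 the same labels were affected in every group. These were female right atrium by sex, male left atrium by Myl4 and male ventricle by both, so results for these labels mix sexes or chambers. All libraries were kept under their labels. Results that include any of the 17, as 10 of the 18 comparisons by sex and chamber do, are also given without them as counts, medians or ranges where a fit was possible. The labels name cardiomyocytes, yet summed markers of macrophages (111 to 443 CPM) and endothelial cells (508 to 889 CPM) were present in every library, and in bulk samples fewer cells of a type and less RNA per cell cannot be told apart.

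The promoters are shown because class I and class II genes share a known layout just ahead of the start site. In class II promoters the X box and Y box bind the complex to which Ciita attaches, and class I promoters carry an upstream enhancer with a kappa B site. RefSeq windows (GRCm38.p6, the genome of the mm10 build, 250 bases before to 50 after the start) were found for 35 members, in 38 windows. Stretches from 7 class II genes follow, 5′ to 3′ on the coding strand, each 60 bases long, with AGCAAC (a core of the X box) and ATTGG (the core of the Y box on this strand) in capitals:
H2-Eb1: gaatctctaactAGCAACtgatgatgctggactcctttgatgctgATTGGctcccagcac
H2-Eb2: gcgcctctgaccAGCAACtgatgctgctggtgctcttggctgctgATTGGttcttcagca
H2-Ob: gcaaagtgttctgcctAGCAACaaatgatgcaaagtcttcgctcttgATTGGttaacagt
H2-Oa: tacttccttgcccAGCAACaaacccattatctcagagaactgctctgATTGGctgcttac
H2-Aa: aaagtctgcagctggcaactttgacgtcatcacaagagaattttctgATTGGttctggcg
H2-DMb1: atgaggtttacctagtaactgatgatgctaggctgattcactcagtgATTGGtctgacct
H2-DMb2: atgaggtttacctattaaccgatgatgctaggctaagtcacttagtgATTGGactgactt

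These stretches lie at chr17:34305763-34305822 (+) for H2-Eb1, chr17:34325530-34325589 (+) for H2-Eb2, chr17:34238801-34238860 (+) for H2-Ob, chr17:34092289-34092348 (+) for H2-Oa, chr17:34287859-34287918 (-) for H2-Aa, chr17:34153083-34153142 (+) for H2-DMb1 and chr17:34145112-34145171 (+) for H2-DMb2. The first 4 hold both sets of letters, and the last 3 hold ATTGG only. H2-DMa, the other class II gene for which windows were found, is not shown. Its window at chr17:34122582-34122881 (+) held neither set of letters. That at chr17:34125268-34125567 (+) held ATTGG only, 198 bases before the start. The class I promoters are shown over 110 bases, with the letters of the kappa B site (upstream) and ATTGG (downstream) in capitals. For B2m the upstream capitals are instead an interferon response element, GAAA and GAAA with any 2 bases between:
H2-K1: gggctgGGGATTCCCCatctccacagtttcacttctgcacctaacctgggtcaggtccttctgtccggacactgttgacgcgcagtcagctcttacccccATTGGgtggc
H2-D1: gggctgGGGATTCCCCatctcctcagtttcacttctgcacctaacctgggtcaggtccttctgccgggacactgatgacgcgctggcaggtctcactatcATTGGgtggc
H2-Q6: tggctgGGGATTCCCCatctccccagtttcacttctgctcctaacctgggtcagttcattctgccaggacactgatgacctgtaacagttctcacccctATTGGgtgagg
B2m: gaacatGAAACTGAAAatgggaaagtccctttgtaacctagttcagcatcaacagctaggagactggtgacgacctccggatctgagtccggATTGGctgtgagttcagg

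The positions are chr17:34000354-34000463 (-) for H2-K1, chr17:35262918-35263027 (+) for H2-D1, chr17:35424672-35424781 (+) for H2-Q6 and chr2:122147542-122147651 (+) for B2m. Searched on both strands, ATTGG was found in 34 of the 38 member windows (89.5%) and in 37.4% of all 32851 promoter windows. The kappa B letters were found in 4 of the 38 member windows, from 3 genes, against 0.085% of all windows. AGCAAC was found in 7 of the 38 member windows (18.4%), close to the 14.8% of all windows, and the interferon response element in 3 (7.89%) against 3.44%. None of these strings contains another. A match is a run of letters and was not tested as a binding site.

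Nearly all of the set lies within the MHC on chromosome 17, for example H2-K1 at chr17:33996012-34000619, H2-Aa at chr17:34282744-34287823, H2-Ab1 at chr17:34263227-34269418, Tap2 at chr17:34204479-34216321 and H2-D1 at chr17:35263094-35267497. B2m lies at chr2:122147687-122153082, Ciita at chr16:10480014-10531064 and Cd74 at chr18:60803849-60812652. The counts were made on coding regions. Some coding sequences are shared: of all 50-base windows of H2-DMb1 or H2-DMb2, 48.1% occur in the other, and windows also found in another gene make up 22.3% of H2-D1, 9.74% of H2-K1, 48.8% of H2-Q7, 36.9% of H2-Q6, 41.7% of H2-T22, 20.8% of Tap2 and 66.4% of H2-Ke6. They also make up 42.5% of H2-Q4, 29.6% of H2-T23, 20.4% of H2-Q1, 16.6% of H2-Q10, 15.9% of Tapbp and 9.80% of H2-Q2. H2-T-ps has no such value. How reads with several alignments were counted is not given in the sources used here, so values of these genes are uncertain by what their neighbours may have lent them. H2-Aa, H2-Ab1, H2-Eb1, Cd74 and B2m share no such window.

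Per kilobase of coding length, B2m was by far the most abundant member, with a median of 998 CPM per kb over the 72 libraries. The heavy chains H2-D1 (281) and H2-K1 (203) followed, with Cd74 (198), H2-Aa (129), Tapbp (94.5) and H2-Ab1 (90.7) next. The class Ib genes H2-T22 (75.4), H2-T23 (59.8), H2-Q4 (52.7), H2-Q6 (46.9) and H2-Q7 (46.3) and the class II chain H2-Eb1 (46.5) came after them, Tap2 lay at 20.2, and the transactivator Ciita at 0.683. Over the 55 libraries not against their label the medians were 994 for B2m, 282 for H2-D1, 206 for H2-K1 and 203 for Cd74. Neighbours in this order, such as H2-K1 and Cd74, differ by less than their own spread between libraries. In the M region H2-M3 (4.92, close to Tap1 at 5.09) and H2-M2 (1.39) were counted in every library. The other M genes were low: H2-M1 had no count in any of the 72 libraries, and H2-M9, H2-M11 and the genes H2-M10.1 to H2-M10.6 were at 0 in 57 to 70 of them. H2-Eb2 was at 0 in 30 libraries, H2-M5 in 19, H2-Oa in 9 and H2-T3 in 1.

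**Figure D1:**
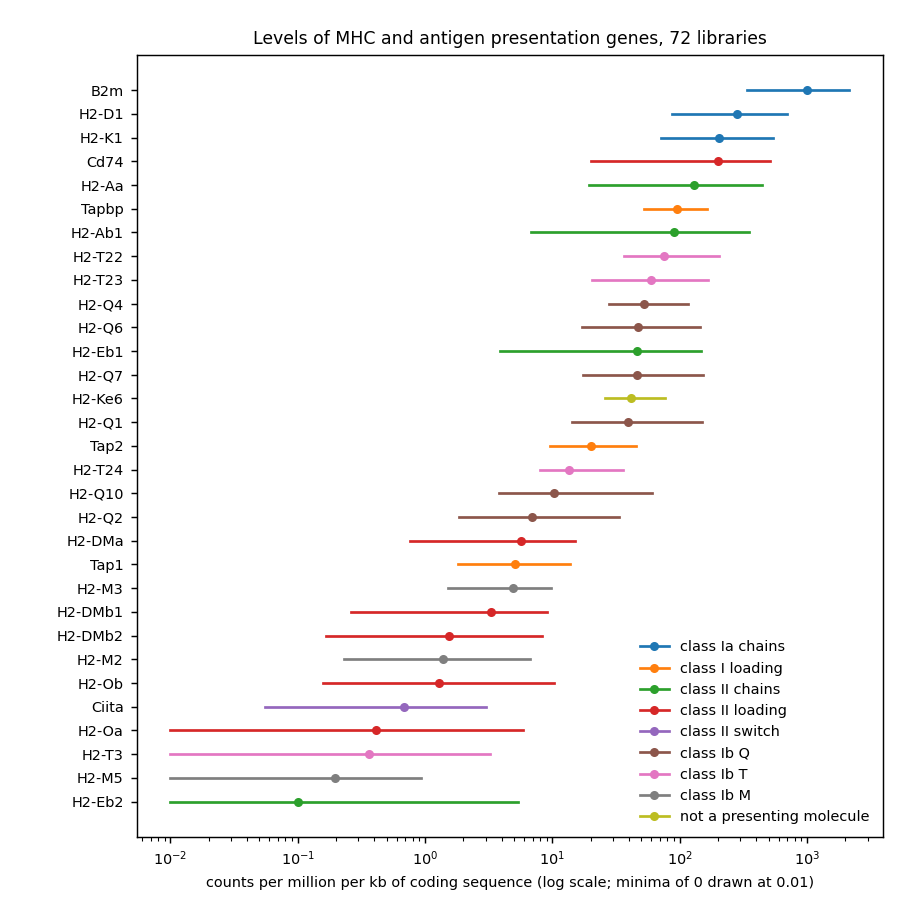
Level of each member that was counted in the hearts, in CPM per kilobase of coding length on a log axis (points, median of 72 libraries; lines, lowest to highest library, with minima of 0 drawn at the left end), coloured by role. B2m has the highest median (998), followed by H2-D1 (281), H2-K1 (203) and Cd74 (198), and Ciita lies at 0.683.

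Some pairs of members kept their proportions more closely than their levels. The log2 ratio of the alternative heavy chains H2-D1 and H2-K1 had an SD of 0.15 over the 72 libraries, while H2-K1 alone had an SD of 0.60 and H2-D1 of 0.53. The paired chains H2-Aa and H2-Ab1 had an SD of 0.46 for their ratio, against 0.90 and 0.99 alone. Among class II genes the log2 ratio of H2-Eb1 to Cd74 had an SD of 0.28, that of H2-Aa to Cd74 0.40 and that of H2-Ab1 to Cd74 0.44, against 0.89 for Cd74 alone. B2m did not keep this proportion with its heavy chains: the log2 ratio of H2-K1 to B2m had an SD of 0.61, close to that of B2m alone (0.65), and that of H2-D1 to B2m 0.56. Without the 17 libraries against their label the ratios had SDs of 0.15 for H2-D1 to H2-K1, 0.44 for H2-Aa to H2-Ab1 and 0.61 for H2-K1 to B2m. All points share depth and chamber, and the shared coding windows of H2-D1 and H2-K1 stand above.

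The class II genes varied more between libraries than the class I heavy chains. The summed level of H2-Aa, H2-Ab1, H2-Eb1 and Cd74 (class II sum, below) ran from 46.2 to 1030 CPM, with a median of 380. Over the 18 naïve libraries the lowest, median and highest sums were 46.2, 246 and 1011 CPM. They were 275, 467 and 1030 CPM in Ahr-/- libraries, 244, 508 and 949 CPM after high-dose TCDD and 179, 331 and 993 CPM after low-dose TCDD, so the groups overlapped. The 4 lowest sums of all 72 were naïve males, namely libraries 33 (46.2) and 17 (50.2), from ventricle and left atrium, and libraries 1 (143) and 2 (156), from right atrium. The highest naïve sum, in library 53, labelled male ventricle, came from one of the libraries against their label. Without these libraries the naïve sums were 46.2, 244 and 576 CPM at the lowest, median and highest, the low-dose median was 380 CPM, and the highest sums of the other groups were as given above.

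**Figure D2:**
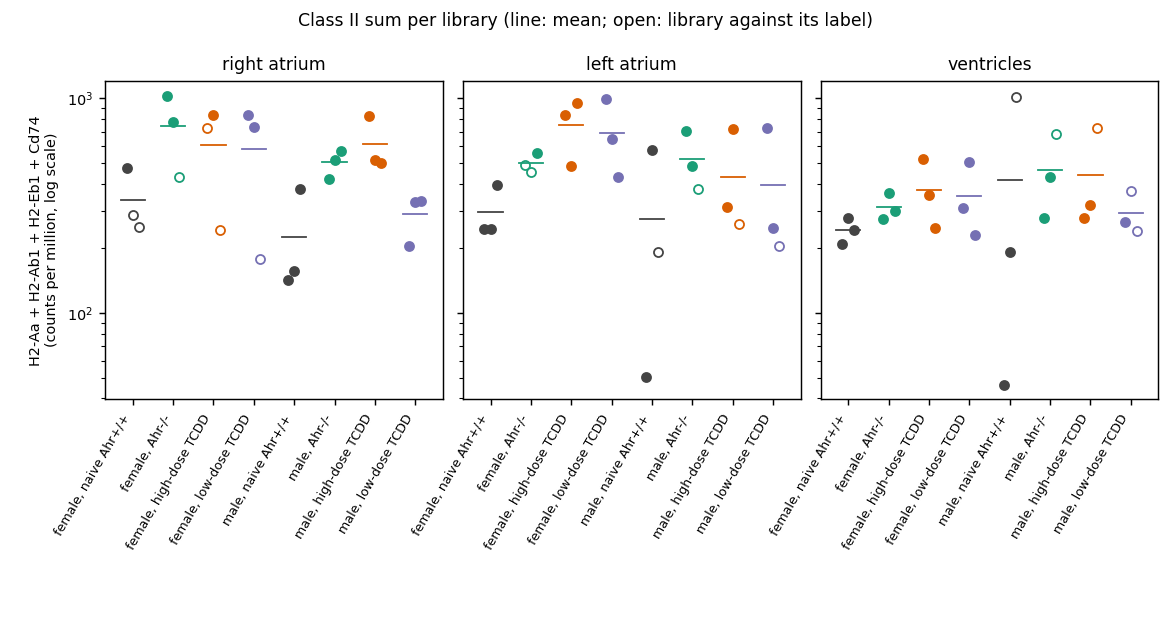
Class II sum (H2-Aa, H2-Ab1, H2-Eb1 and Cd74, in CPM on a log axis) in each of the 72 libraries by chamber, sex and group, 3 points per group with a line at the mean, and open points for the 17 libraries against their label. Naïve libraries range from 46.2 to 1011 CPM, and the highest of them, library 53, is an open point.

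Each Ahr-/- or TCDD-exposed group was then compared with the naïve group of the same sex and chamber, 3 libraries against 3, which asks whether loss of the receptor or exposure before birth left a mark on these genes in the adult. Counts were tested with edgeR's quasi-likelihood test over all genes, and genes were called at a Benjamini-Hochberg adjusted p under 0.05. In each of the 18 comparisons, which share naïve libraries in threes, 28 to 30 distinct members could be tested. The median log2 fold change of the members ranged from 0.14 in low-dose male ventricle to 0.97 in low-dose female left atrium, and the median over all genes from -0.01 to 0.07. Members were called in 1 of the 18, high-dose female ventricle. At an unadjusted p under 0.05, 0 to 22 members per comparison were higher than naïve and 0 were lower, where 0.701% to 18.7% of all genes were higher. Of all genes, from 132 of 14686 (low-dose male left atrium) to 2500 of 14006 (high-dose female ventricle) were lower at that p.

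**Figure D3:**
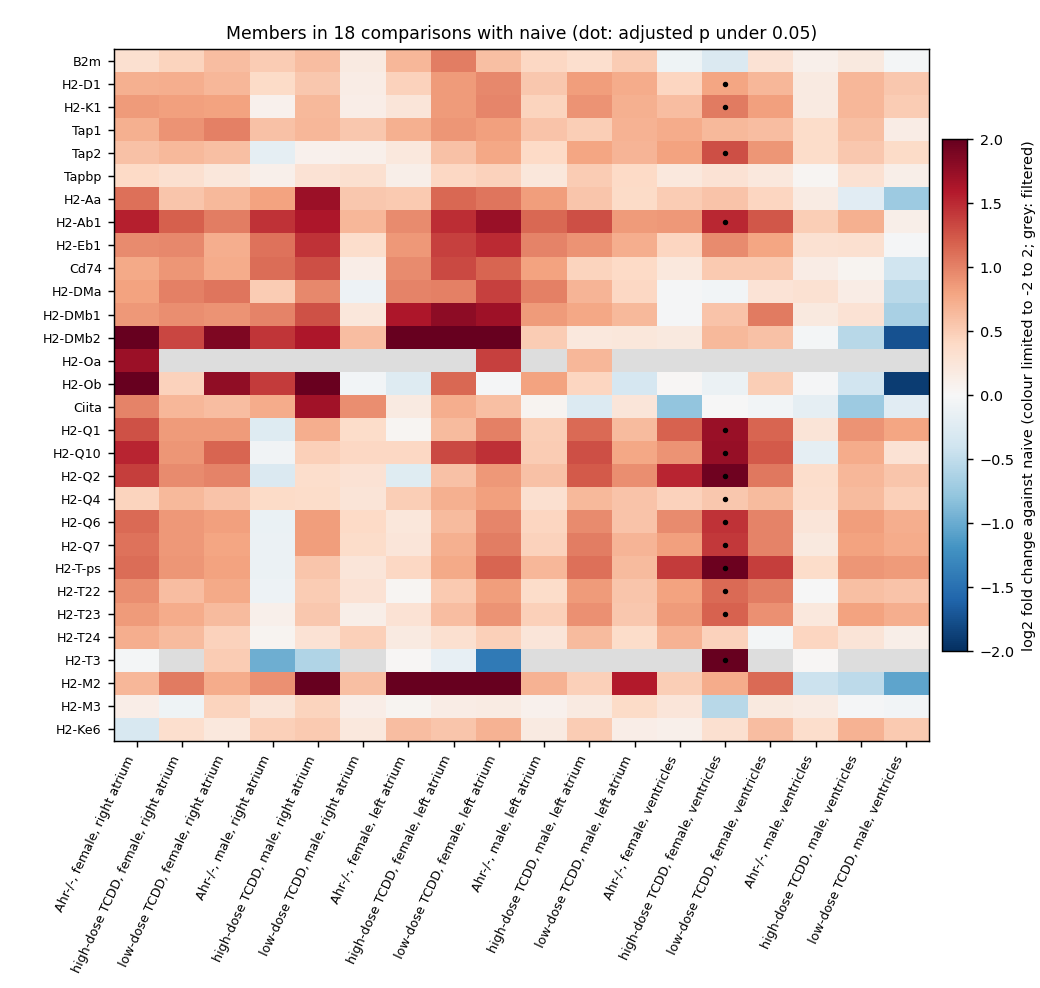
Log2 fold change against naïve of each member tested (rows, by role) in the 18 comparisons (columns, by chamber, sex and group), in colour, with a dot on members called at an adjusted p under 0.05 and grey where a member was not tested. The dots all stand in the high-dose female ventricle column, where 14 of 29 members were called.

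In the ventricle of high-dose TCDD-exposed females, most class I genes rose. Of 19 distinct class I members tested 13 rose, while B2m, Tap1, Tapbp, H2-T24, H2-M2 and H2-M3 were not called. Of all 29 members tested, 14 rose and 0 fell, where 12.2% of all 14006 genes tested rose and 11.4% fell by edgeR's test. DESeq2 called 17 members higher, where 13% of all genes were higher and 12.6% lower. By role, 6 of 6 class Ib Q genes, 4 of 5 class Ib T genes, both classical heavy chains, Tap2 and H2-Ab1 were called. Calls of members that share coding windows, as given above, may rest in part on the same reads. None of these 6 libraries was among those against their label. Expression of Tap2, a subunit of the peptide transporter, was 22.2, 24.6 and 20.1 CPM in the naïve libraries and 56.2, 46.5 and 42.0 CPM in the exposed ones. The groups did not overlap, and the fitted log2 fold change of Tap2 was 1.29 (SE 0.14, edgeR adjusted p = 0.00028), the smallest adjusted p of the set.

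The classical heavy chains rose as well. H2-K1 was at 131, 131 and 119 CPM in the naïve ventricle and at 335, 196 and 170 CPM after high-dose exposure (log2 fold change 1.04, SE 0.19, edgeR adjusted p = 0.0027). H2-D1 was at 212, 207 and 177 CPM against 407, 268 and 239 CPM (log2 fold change 0.78, SE 0.15, edgeR adjusted p = 0.0040). In both genes the naïve libraries lay close together, and library 43 stood above its 2 partners. B2m, the light chain these heavy chains need, was at 373, 330 and 402 CPM in naïve and 355, 283 and 181 CPM in exposed libraries (log2 fold change -0.29, edgeR adjusted p = 0.25).

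Among class Ib genes, the non-classical T region gene H2-T22 rose from 44.0, 54.0 and 41.6 CPM to 120, 90.5 and 64.7 CPM. H2-T23, which encodes Qa-1, a ligand of NK cell receptors, rose from 35.7, 34.7 and 30.8 CPM to 96.3, 55.1 and 52.5 CPM. H2-Q6 rose from 24.1, 25.0 and 23.4 CPM to 85.2, 45.8 and 46.0 CPM, and its row also stands for H2-Q8. None of these values overlapped, and library 43 was again the highest each time. The log2 fold changes were 1.14 for H2-T22, 1.18 for H2-T23 and 1.45 for H2-Q6, with H2-Q1 at 1.73, H2-Q7 at 1.42, H2-Q10 at 1.74, H2-Q2 at 1.95 and H2-T-ps at 1.97, all at edgeR adjusted p-values between 0.00096 and 0.0048. H2-Q4 changed least of those called (0.54, adjusted p = 0.018), and its call was lost without any of libraries 35, 43, 54 or 66 (adjusted p up to 0.090). H2-T3 had the largest fitted value (2.92, adjusted p = 0.024), which rests on 3.73 CPM in library 43 against 0.597 and 0.577 in the other exposed libraries and 0.110 to 0.319 in the naïve ones. Its call was lost without library 35, 36 or 54 (adjusted p up to 0.085), and without library 43 it was not tested.

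Of the class II genes only H2-Ab1 passed edgeR's test. H2-Ab1 was at 32.5, 37.4 and 31.8 CPM in naïve and 139, 66.3 and 56.6 CPM in exposed ventricle (log2 fold change 1.51, SE 0.28, edgeR adjusted p = 0.0063). Its partner chain H2-Aa had a log2 fold change of 0.57 (adjusted p = 0.051), the invariant chain Cd74 of 0.52 (adjusted p = 0.060) and H2-Eb1 of 0.95 (adjusted p = 0.081) by edgeR. DESeq2 called all 3 of these, at adjusted p-values of 0.019 for H2-Aa, 0.030 for Cd74 and 0.0035 for H2-Eb1. Ciita, their transactivator, was at -0.01 (adjusted p = 0.99). Tapbp (0.29, adjusted p = 0.10) and Tap1 (0.64, adjusted p = 0.11) did not pass the test. Over the members tested, 15 had every exposed library above every naïve one, where 11.7% of all genes did, and 1, H2-M3, had every exposed library below, where 25.1% of all genes did.

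**Figure D4:**
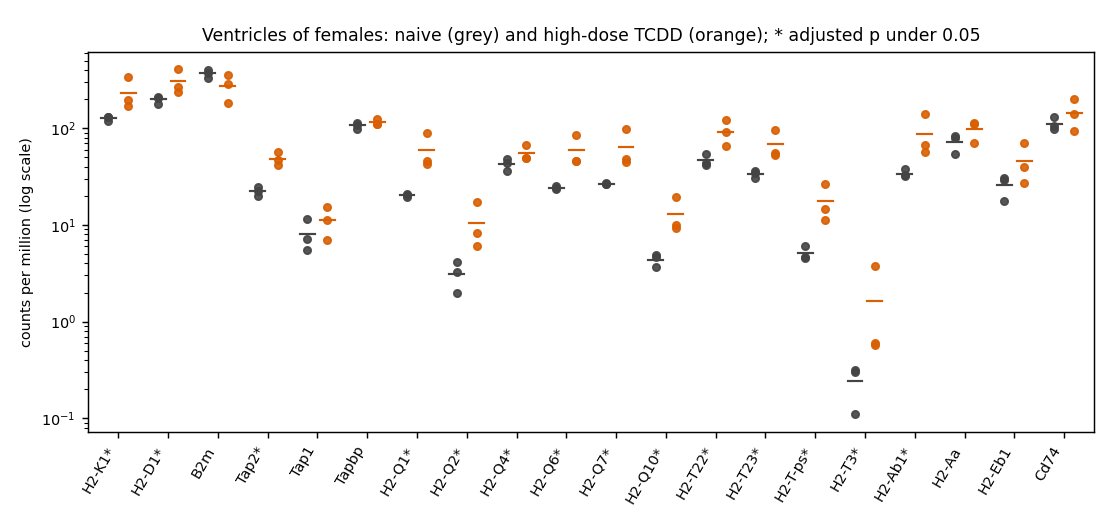
CPM of members in the 3 naïve and 3 high-dose TCDD-exposed female ventricle libraries on a log axis, 1 point per library with a line at the mean and an asterisk on members called. Tap2, H2-K1, H2-D1 and H2-Ab1 do not overlap between the groups, and B2m does.

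Other antigen processing genes and cell type markers were read in the same libraries. Of 24 further genes of antigen processing, 23 were tested and 4 rose: the immunoproteasome subunits Psmb9 (0.92) and Psmb10 (0.59), the class II protease Ctss (0.61) and the lysosomal reductase Ifi30 (0.99). None fell, and the median of the list was -0.05. Of all genes 12.2% rose in this comparison. Of the cardiomyocyte markers 4 of 4 rose, with summed levels of 35680 to 38280 CPM in naïve and 56420 to 74300 CPM in exposed libraries. Of 8 macrophage markers 2 rose, among them C1qa (0.96), and the sums were 111 to 185 CPM in naïve and 127 to 192 CPM in exposed libraries. Of 5 endothelial markers 2 fell. B cell markers summed to 0.827 to 4.01 CPM in naïve and 0.132 to 2.15 CPM in exposed libraries, with Cd79a and Ms4a1 at 0 in library 43. T cell markers summed to 2.88 to 3.36 CPM against 2.40 to 7.47 CPM, and dendritic cell markers to 18.3 to 18.7 CPM against 12.4 to 21.3 CPM. No B cell, T cell or dendritic cell marker was called, and the part of any of these cells in the class I values was not tested.

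The call in high-dose female ventricle depended on the design of the fit. When any single library was removed, 12 to 16 members were called, and 12 of the 14 passed in each of these fits, H2-Q4 and H2-T3 being the exceptions. With all 72 libraries in one fit, so that the spread was taken from all groups, 0 members were called, and at the stricter threshold of 0.0001 also 0. That fit includes the 17 libraries against their label. In the fit of the 6 libraries 12.2% of all genes rose. The shares of all genes in the other fits are not given, so these counts are not set against other genes.

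Female ventricle of the other groups had values of the same sign that did not pass the test. After low-dose TCDD the members had a median log2 fold change of 0.72, and in Ahr-/- ventricle of 0.50. H2-K1 was at 184, 276 and 147 CPM after low-dose exposure and at 182, 188 and 182 CPM in Ahr-/- females, each above the naïve values of 131, 131 and 119 CPM. Tap2 was at 30.4, 42.9 and 35.9 CPM and at 27.7, 39.4 and 42.7 CPM, also without overlap with naïve. Of 28 members tested, 12 lay above naïve in every low-dose library (6.81% of all genes did), and 14 of 28 in every Ahr-/- library (5.9% of all genes). With edgeR's test 0 members were called in either, with 17 and 15 at an unadjusted p under 0.05. At that unadjusted p 1382 of 13966 genes were higher after low-dose TCDD and 852 of 13920 in Ahr-/- females. The test called no gene at all after low-dose TCDD, and 0.00718% higher and 0.0144% lower of all genes in Ahr-/- females. DESeq2 called 12 and 5 members higher, and 2.6% and 0.366% of all genes. Leaving out each of the 6 libraries in turn gave 0 to 13 called members in Ahr-/- females, with 13 only without library 39. After low-dose exposure it gave 0 to 5, with 5 only without library 47. The shares of all genes in these fits are not given, so these counts are not set against other genes.

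In male ventricle the values depended on a few libraries. In naïve males H2-K1 was at 78.6, 92.8 and 312 CPM, and the class II sum at 46.2, 192 and 1011 CPM. The highest value of each was in library 53, which is labelled male and ventricle and was against both labels. It also held markers of B and T cells, as did library 59 of the Ahr-/- males. With all libraries, 0 of 28 members were called by edgeR's test in high-dose males (0 at an unadjusted p under 0.05, and 0 by DESeq2), where H2-K1 was at 184, 183 and 391 CPM. Without libraries 53 and 65, which leaves 2 against 2, 10 of 27 members rose, where 7.13% of all genes rose. These were H2-D1 (log2 fold change 1.27), H2-K1 (1.13), B2m (1.23), H2-Q1, H2-Q4, H2-Q6, H2-Q7, H2-T23, H2-Ob and H2-Ke6. The median of the members moved from 0.57 to 0.96 in high-dose, from 0.20 to 1.03 in Ahr-/- and from 0.14 to 0.90 in low-dose male ventricle when the libraries against their label were left out. That leaves 1 exposed library against 2 naïve in the low-dose comparison, and 2 against 2 in the other 2.

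With both sexes in one fit and sex as a term, 6 libraries stood against 6. In high-dose ventricle 7 of 29 members rose and 0 fell (5.82% of all genes rose and 6.65% fell), namely H2-Q1, H2-Q4, H2-Q6, H2-T-ps, H2-T22, H2-T23 and Tap2 (log2 fold change 0.92, SE 0.19, edgeR adjusted p = 0.014). In low-dose ventricle 6 of 28 rose and 0 fell (5.99% and 6.51% of all genes): H2-Q4, H2-T-ps, H2-T22, H2-T23, H2-Ke6 and Tap2 (0.63, SE 0.16, edgeR adjusted p = 0.025). In Ahr-/- ventricle edgeR called 0 of 29, with 6 at an unadjusted p under 0.05, and DESeq2 also called 0, while edgeR called 0.00679% of all genes higher and 0.0271% lower. At that unadjusted p 912 of 14738 genes were higher.

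Leaving out the libraries against their label raised each of these counts. In high-dose ventricle 16 members then rose (10.7% of all genes), including all 7 of the former, with H2-K1 at 1.05 and H2-D1 at 0.95. In low-dose ventricle 13 rose (2.33% of all genes), including all 6, with H2-K1 at 0.85 and H2-Ab1 at 1.28. In Ahr-/- ventricle 9 of 29 rose (0.475% of all genes), with H2-K1 at 0.77 (SE 0.13), Tap2 at 0.82 and H2-T-ps at 1.37. These comparisons share the naïve libraries.

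In the atria edgeR's test called 0 members in each comparison of a single sex (0 to 22 members per comparison at an unadjusted p under 0.05, 0 to 15 by DESeq2). Of all genes, from 103 of 14686 to 1293 of 14885 were higher at that unadjusted p. With both sexes in one fit edgeR again called 0 of 30 members in each atrium and group (7 to 22 at an unadjusted p under 0.05, 0 to 11 by DESeq2). In these fits from 547 of 15240 to 1198 of 15535 genes were higher at that unadjusted p. Few genes of any kind passed the adjusted threshold in the atria, at most 0.0197% of all genes higher and 0.0525% lower in high-dose right atrium, and 0.00644% and 0.013% lower in right and left Ahr-/- atrium. Without the libraries against their label edgeR called 0 members in each of the atrial comparisons that could still be fitted, of a single sex or both (2 to 18 members per comparison at an unadjusted p under 0.05; DESeq2 was not run on these libraries). The median of the members then moved from 0.86 to 0.89 in Ahr-/- and from 0.74 to 0.73 in low-dose female right atrium, from 0.41 to 0.17 in Ahr-/- female left atrium, and from 0.50 to 0.68, 0.68 to 0.85 and 0.57 to 0.59 in Ahr-/-, high-dose and low-dose male left atrium. In female right atrium only library 3 is then left among the naïve libraries. In Ahr-/- female left atrium only library 58 is left among the Ahr-/- libraries. The medians of these comparisons have no replicate on that side. High-dose female right atrium is left with 1 library against 1 and could not be fitted. The left atrium of females was one of the places where members stood well above naïve, and there none of the naïve or TCDD-exposed libraries was against its label. After low-dose TCDD H2-Ab1 was at 248, 120 and 117 CPM, against 56.6, 37.8 and 60.9 CPM in naïve females (log2 fold change 1.73, SE 0.31, edgeR adjusted p = 0.15). H2-D1 had a log2 fold change of 0.96 there (SE 0.18, adjusted p = 0.15). T cell markers were also higher there, at 14.5, 8.99 and 6.13 CPM against 5.73, 4.31 and 5.19 CPM in naïve libraries, as were B cell markers in libraries 31 and 70 (14.2 and 8.61 CPM, against at most 2.48 CPM), and their part in these values was not tested. In that comparison 18 of 30 members lay above naïve in every library, where 7.11% of all genes did, and 1, H2-T3, lay below in every library, where 14.9% of all genes did. Of the 30, 22 were higher at an unadjusted p under 0.05, as were 1293 of all 14885 genes. DESeq2 called 15 higher, and 2.3% of all genes. After high-dose TCDD the class II sum was 835, 482 and 949 CPM against 247, 245 and 394 CPM in naïve, and 12 of 29 members did not overlap (8.46% of all genes). The highest of these, library 64, also held thymocyte markers at 454 CPM, and without it the median of the members fell from 0.75 to 0.36. The median likewise moved from 0.86 to 0.42 in Ahr-/- female right atrium without library 7, from 0.50 to 0.27 in Ahr-/- male left atrium without library 21 and from 0.68 to 0.45 in high-dose male left atrium without library 26, all high in B and T cell markers. Besides these, library 15 of the low-dose female right atrium held lung markers at 2127 CPM. The part of such RNA in the values was not tested.

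In male right atrium, where no library was against its label, 6 of the 9 class II genes tested did not overlap between high-dose and naïve (H2-Aa, H2-Ab1, H2-Eb1, Cd74, H2-DMb1 and Ciita), while H2-DMa, H2-DMb2 and H2-Ob did. The class II sum was 143, 157 and 379 CPM in naïve, 826, 515 and 500 CPM after high-dose TCDD and 423, 518 and 568 CPM in Ahr-/- males. Both of these groups lay above all naïve values, and low-dose libraries, at 205, 329 and 332 CPM, lay within their range. The highest value, 826 CPM, was in library 9, where B and T cell markers summed to 104 CPM against at most 9.77 CPM in the naïve libraries. Without it the other high-dose libraries still lay above all naïve ones. H2-Aa had a log2 fold change of 1.70 after high-dose exposure (SE 0.37) and Ciita of 1.68 (SE 0.43), with edgeR adjusted p-values of 0.50 and 0.69. Of 29 members, 11 did not overlap between high-dose and naïve males (3.73% of all genes), and 8 between Ahr-/- and naïve males (7.76% of all genes).

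The difference between the sexes was tested as an interaction of sex and group in 9 fits, and edgeR called no member in any of them (between 0 and 5 members per fit had a higher and between 0 and 1 a lower estimate in females at an unadjusted p under 0.05, and DESeq2 also called 0). Of the 14536 to 15535 genes tested, 68 to 341 per fit were higher and 44 to 362 lower at that unadjusted p. Without the libraries against their label, B2m passed in high-dose ventricle, with an interaction of -1.56 (SE 0.30, edgeR adjusted p = 0.0062), where 4.57% of all genes were lower. No other member passed in any of the 9 fits under that setting. B2m is the gene that, without those libraries, rose in high-dose males and was not called in high-dose females. It was then at 132 and 186 CPM in naïve male ventricle (libraries 33 and 34) and at 320 and 409 CPM in high-dose male ventricle (libraries 41 and 42). Naïve females were at 373, 330 and 402 CPM, so the interaction rests on few male libraries and on low naïve male values. The sexes were also compared over all groups, where chambers of the same heart entered the fit as if independent. The labels do not tie libraries to hearts, so the p-values between the sexes may be too small. Without the libraries against their label some groups, such as naïve female right atrium, also hold only 1 library. Over all groups edgeR called 0 of 32 members between females and males, with 0.0719% of all genes higher and 0.168% lower. At an unadjusted p under 0.05, 9 members were higher and 1 lower in females, and DESeq2 called 0. At that unadjusted p 406 of 16688 genes were higher and 705 lower in females. Without the libraries against their label 5 were higher in females, where 0.715% of all genes were: H2-K1 (0.38), H2-D1 (0.32), H2-Q6, H2-Q7 and Ciita (0.84).

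Chambers were compared over all 72 libraries with a mean for each of the 24 groups. With the labels as given, H2-K1 was higher in right atrium than in ventricle (log2 difference 0.31, edgeR adjusted p = 0.033), as were 16.3% of all genes, and H2-Ke6 was lower (-0.44, adjusted p = 0.0017), as were 13.6% of all genes. In left atrium H2-Ke6 was also lower than in ventricle (-0.36, adjusted p = 0.016), where 12% of all genes were higher and 7.39% lower. Between right and left atrium edgeR called 0 members (0 at an unadjusted p under 0.05, and 0 by DESeq2) and 0.00599% of all genes.

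Once the 17 libraries against their label were left out, which leaves 55, the atria stood above the ventricles in most of the set. In right atrium 23 of 37 members were higher than in ventricle, where 24.9% of all genes were, and only H2-Ke6 was lower (-0.74), as were 21.9% of all genes. The median log2 difference was 0.50 over the members and 0.07 over all genes. All 4 class II chains, 5 of the 6 class II loading genes and Ciita (1.28, SE 0.26, edgeR adjusted p = 0.00011) were among those higher. In left atrium 22 members were higher (23% of all genes) and H2-Ke6 again lower (-0.66, with 20.6% of all genes), with a median of 0.52. H2-K1 was higher by 0.57 in right and 0.49 in left atrium, and Tapbp by 0.24 and 0.27. Macrophage markers moved with chamber as well: in these 55 libraries their lowest, median and highest sums were 111, 167 and 234 CPM in ventricle, 205, 306 and 443 CPM in right atrium and 227, 278 and 390 CPM in left atrium. T cell markers had medians of 3.44, 6.16 and 6.89 CPM in the same order, and the part of these cells in the atrial values was not tested.

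The genes most like class II were sought over the 72 libraries. Of 13951 genes ranked by Spearman's correlation with the mean log2 CPM of the class II genes, the closest outside the set were Coro1a (0.90), an actin regulator of leukocytes, the T cell chemokine Ccl5 (0.84) and Lcp1 (0.83), the plastin of blood cells. Wdfy4, Hepacam2, Slamf7, Lck, Plac8, Ly86 and Ctss followed, at 0.80 to 0.82. Of summed markers, T cells had the closest relation (0.85), ahead of macrophages (0.66), B cells (0.62), dendritic cells (0.50) and endothelial cells (0.16). Lck is itself among the T cell markers, so its value and theirs are not separate observations. Within the set, H2-DMb1 (0.91), H2-DMa (0.88) and H2-DMb2 (0.85) followed the class II chains closely. H2-D1 (0.81), Tap1 (0.80), H2-K1 (0.77) and the transactivator Ciita (0.73) did less so. H2-Ob (0.70), B2m (0.63) and Tap2 (0.49) came after them, and H2-Ke6 (0.03) did not follow at all. Over the 55 libraries not against their label the 10 named genes were at 0.79 to 0.89, the T cell markers at 0.86, the macrophage markers at 0.64 and B2m at 0.58. All points are libraries that share chamber and group, and the values are descriptions without a test.

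**Figure D5:**
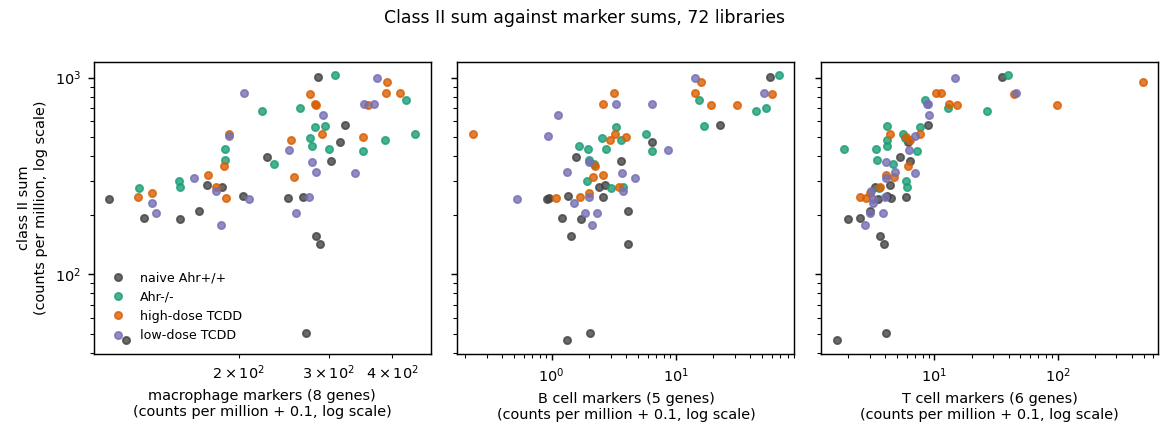
Class II sum (CPM) against the summed macrophage, B cell and T cell markers (CPM + 0.1) in the 72 libraries, on log axes, coloured by group. Spearman's correlation with the mean log2 class II level is 0.66 for the macrophage, 0.62 for the B cell and 0.85 for the T cell markers.

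Summed B and T cell markers reached at least 50 CPM in 8 libraries (65.9 to 510 CPM, with at most 34.3 CPM in the others), a bound set after the sums had been seen. Without these libraries 14 members rose in high-dose ventricle of both sexes (5.74% of all genes), 14 in low-dose (6.4%) and 9 in Ahr-/- ventricle (0.475%). In ventricle only libraries 53 and 59 were left out, and both were also against their label. The Ahr-/- fit is therefore the same as the one without libraries against their label. The high-dose and low-dose fits leave out library 53 only. None of the 6 libraries of the high-dose female ventricle comparison was among the 8.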

How the data were processed

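RNA was sequenced with poly(A) selection and 50 cycles per read in 72 libraries. The authors aligned reads to mm10 with TopHat and deposited raw read counts per gene on coding regions, made with Bioconductor packages and without normalization, and the submitters' processing notes also name bcl2fastq, CASAVA 1.8 and DESeq. The annotation release and the handling of strand and of multiple alignments are not given in the sources used here. Of 24237 gene identifiers, 82 matched no symbol in the RefSeq table (3.91% of counts) and stayed in the fits.

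Counts were scaled by TMM after filterByExpr (minimum count 10, minimum total 15) and tested with edgeR 4.0.16 in R 4.3.3 (robust quasi-likelihood F test, Benjamini-Hochberg over all genes tested, threshold 0.05). Fits used the 6 libraries of a comparison, 12 with sex as a term or with a sex by group interaction, or all 72 with 24 group means. No fit had a term for the heart, so chambers of the same heart counted as separate observations in the fits over all chambers. The scripts were tested on simulated data. The study used DESeq with an adjusted p of 0.0001, separately by sex. Alternatives were RLE, library size only, no filter, DESeq2 1.42.0, the library series (numbers 1 to 48 against 49 to 72) as a term, libraries 1 to 48 only, all 72 in one fit, naïve libraries only, the threshold 0.0001, leaving out each library, and leaving out libraries whose sex-linked genes or Myl4 go against their label. Members and lists were chosen with earlier results of these data known. Values by group are given for the class II, classical class I and loading genes and for every other member called, the rest by ranges, and the 10 genes most like class II are named. The study's methods name biological triplicates, while the labels do not tie libraries to animals. Depths of 11873417 to 28789382 counts make that spread, not counting, the limit for all but the rarest genes.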

Additional observations from a re-analysis of the deposited data

Results flagged for a closer look

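Sums over members were searched for a library far from the other 5 of its group and chamber (sexes together) with Dixon's test. Of 60 tests 9 passed, where chance alone flags about 1 in 20 of independent tests. The sums were taken over the same libraries, so the 60 tests are not independent. No excess over chance is read from the 9. In naïve ventricle library 53 stood out in 4 sums: 1011 CPM for class II (next library 278), 759 CPM for H2-K1 and H2-D1 (next 342), 234 CPM for Tap1, Tap2 and Tapbp (next 144) and 515 CPM for class Ib genes (next 236). It is one of the libraries against their label in sex and chamber.

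In Ahr-/- right atrium library 7 stood out with 1254 CPM for H2-K1 and H2-D1 (next 767), 321 CPM for the transporter genes (next 221) and 1135 CPM for class Ib genes (next 541). In this library B and T cell markers summed to 108 CPM and adipocyte markers to 460 CPM, and their part was not tested. In high-dose ventricle library 65, also against its label, had 294 CPM for the transporter genes (next 195), and in high-dose left atrium library 64 had 1139 CPM for class Ib genes (next 613).

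Markers that no comparison used were high in single libraries. Thymocyte markers summed to 454 CPM in library 64 and 72.7 CPM in library 26, both high-dose left atrium, against at most 6.81 CPM in naïve libraries. Lung epithelial markers summed to 2127 CPM in library 15, 751 CPM in library 21 and 71.9 CPM in library 25, against at most 4.79 CPM in naïve libraries. Their part in the class I and class II levels of these libraries was not tested.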

How the results depend on the processing

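No called member changed direction under any alternative in which it was tested. Members not called were not checked in this way. Of 325 alternative values of single called members, 269 stayed past the threshold and 56 did not. No paired analysis was possible because the labels number libraries 1 to 72 through all groups, so no number is shared between groups. Leaving out each library in turn gave 12 to 16 called members in high-dose female ventricle, 0 to 13 in Ahr-/- female ventricle (13 without replicate 39) and 0 to 5 in low-dose female ventricle (5 without replicate 47, 1 without replicate 48), and 0 elsewhere. The library series term left 14 in high-dose female ventricle.

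DESeq2 called more members: 17 in high-dose female ventricle (14 by edgeR, with H2-Aa, H2-Eb1 and Cd74 added), 1 in Ahr-/- female and 1 in Ahr-/- both-sex right atrium, 3 in high-dose male and 3 in high-dose both-sex right atrium, 1 in low-dose both-sex right atrium, 1 in Ahr-/- female and 1 in Ahr-/- both-sex left atrium, 4 in high-dose male, 9 in high-dose both-sex, 15 in low-dose female and 11 in low-dose both-sex left atrium, 5 in Ahr-/- female, 11 in high-dose both-sex and 12 in low-dose female ventricle, and 2 between left atrium and ventricle. In low-dose both-sex ventricle DESeq2 added H2-Q1, H2-Q6 and H2-Q7 to the members called by edgeR. With libraries 1 to 48 only, 7 were called in Ahr-/- female and 2 in high-dose female left atrium (both Ahr-/- libraries left there were against their label, as was 1 of the low-dose male ventricle libraries), 10 in high-dose male, 16 in high-dose both-sex, 7 in low-dose male and 15 in low-dose both-sex ventricle, 1 in the high-dose ventricle interaction, 21 and 20 between right or left atrium and ventricle and 6 between sexes.

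Without libraries against their label, the counts were 9 in Ahr-/-, 16 in high-dose and 13 in low-dose both-sex ventricle, 10 in high-dose male ventricle, 1 in the high-dose ventricle interaction, 24 and 23 between right or left atrium and ventricle, and 5 between sexes. Without libraries high in B and T cell genes they were 9, 14 and 14 in the same both-sex ventricles and 6 and 4 between chambers. The 9 come from the same fit as the 9 before. With library size only, 1 was called in high-dose and 0 in low-dose both-sex ventricle, and 11 and 9 between chambers. That scaling moved the median of all genes by -0.17 in high-dose and -0.15 in low-dose female ventricle and by 0.23 and 0.18 between the atria and ventricle. Without the filter 4 were called in high-dose both-sex and 2 in low-dose female ventricle. With the series as a term 11 were called in high-dose and 10 in low-dose both-sex ventricle. All 72 libraries in one fit, and the threshold 0.0001, each left 0 in high-dose female ventricle, and naïve libraries alone left 0 between right or left atrium and ventricle. The cause of these differences was not tested. Where no share of all genes is given above for a setting, its count is not set against other genes.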

Other observations

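H2-M10.2 to H2-M10.6, which were at 0 in most libraries, each held 13 counts in library 25, labelled high-dose male left atrium.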
